A study of Mus musculus with 4 samples.

Results

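Respiratory complex I, the NADH:ubiquinone oxidoreductase of the inner mitochondrial membrane, was examined through its nuclear genes in a thigh muscle of mice. The genes were taken by symbol: every protein-coding gene named Nduf followed by a, ab, b, c, s, v or af and a number in GENCODE M21. The rule found 46 genes among the 55401 of the count tables, and all 46 had enough counts to be tested. They comprise 36 subunits of the complex, 8 assembly factors (Ndufaf1 to Ndufaf8) and 2 relatives, Ndufa4 and Ndufa4l2, which carry the name but are not counted as subunits today. Ndufb1 is absent from the list because GENCODE M21 holds it as Ndufb1-ps, a non-coding gene.

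Poly(A) RNA was sequenced from semimembranosus, a hamstring muscle, of C57BL/6 mice aged 8 weeks whose left external iliac vein had been tied over a 30-gauge needle to narrow it (IVS, iliac vein stenosis). The IVS_diosmin group, 2 libraries, was given 40 mg/kg of diosmin into the stomach each day (diosmin is a flavonoid from citrus plants that is taken for vein disease), and the IVS group, 2 libraries, was given saline the same way. All 4 libraries carry the stenosis, so no level here has an unoperated reference. The labels do not say that the libraries came from separate animals, so the p-values reflect how far these libraries spread, and that spread may be technical.

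Complex I passes electrons from NADH to ubiquinone and pumps protons across the membrane. Its peripheral arm, in the matrix, holds the flavin and the iron-sulphur clusters, and its membrane arm holds the proton channels. The core that does the chemistry is built from nuclear subunits of the peripheral arm and mitochondrially encoded subunits of the membrane arm, and the other, supernumerary subunits surround it. Assembly factors help to build the complex and are not part of the finished enzyme. In muscle, oxidative fibres are rich in mitochondria and in this enzyme, and glycolytic fibres are poorer in it.

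Gene counts summed to 13897740 and 14539304 in IVS_diosmin replicates 1 and 2, and to 15324354 and 13056650 in IVS replicates 1 and 2. The 46 genes received 46728 and 51129 counts in the IVS_diosmin libraries and 84382 and 61285 in the IVS libraries. Markers of the tissue were present: Myh4, the myosin of fast glycolytic fibres, stood at 20300 and 19800 CPM (gene counts scaled to library size with TMM factors) in IVS_diosmin and at 24400 and 23000 CPM in IVS. The 8 slow fibre markers summed to 3541 and 1357 CPM in IVS_diosmin and to 48.7 and 44.9 CPM in IVS, with 7 of 8 past the threshold, and the 8 endothelial markers summed to 224 and 211 CPM in IVS_diosmin and to 429 and 443 CPM in IVS, with 5 of 8 past it. Of 4 tested signs of RNA composition 2 passed, both lower: Rn7sk, a small nuclear RNA that is not polyadenylated, was at 11.9 and 5.97 CPM in IVS_diosmin and 34.6 and 33.5 CPM in IVS, and Lars2, whose mouse locus holds an rRNA-like stretch, was at 584 and 522 CPM in IVS_diosmin and 2006 and 1866 CPM in IVS. The other 2 did not pass. Neat1 was higher, at 4970 and 3210 CPM in IVS_diosmin and 2580 and 2300 CPM in IVS. Malat1 overlapped, at 366 and 261 CPM in IVS_diosmin and 440 and 338 CPM in IVS. Of the 9 fast fibre markers 1 rose, and no tested marker of smooth muscle, fibro-adipogenic, fat, macrophage, lymphocyte, nerve sheath, satellite or red blood cells passed. Low counts left only 3 of 6 adipocyte, 0 of 4 brown adipocyte, 1 of 5 lymphocyte and 2 of 4 red blood cell markers tested. Adipocyte markers summed to 6.78 and 15.4 CPM in IVS_diosmin and to 11.6 and 32.1 CPM in IVS. Reads that aligned to more than 1 place were 45.6% and 43.6% of all reads in IVS_diosmin and 37.7% and 38.8% in IVS. These differences accompany every comparison below, and their part in the complex I values was not tested.

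Most subunit genes had lower values with diosmin, and few of them passed the test singly. Of 36 subunits, 35 had a negative log2 fold change (IVS_diosmin over IVS), with a median of -0.42 and a range from -0.98 to 0.20, beside a median of 0.01 over all 13533 genes tested, 49.5% of which were below 0. In 32 of the 36, both IVS_diosmin libraries lay below both IVS libraries. Over all tested genes that was so for 24.1%, and over the 46 genes for 35. With RLE scaling these were 23.9% and 35, and with scaling by total counts 28.8% and 38. Of the 36 subunits 2 fell, Ndufb6 and Ndufb3, and none rose, at an adjusted p under 0.05 in edgeR's quasi-likelihood test. With Ndufa4 this makes 3 of the 46 genes, or 6.52%, beside 2.96% of all tested genes called in either direction, with 1.78% lower and 1.17% higher. At an unadjusted p under 0.05 stood 16 of the 46, all lower, or 34.8%, beside 16.8% of all tested genes in either direction and 8.91% lower. In bulk tissue, fewer cells or fibres that express a gene and less of its RNA per cell cannot be told apart.

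**Figure D1:**
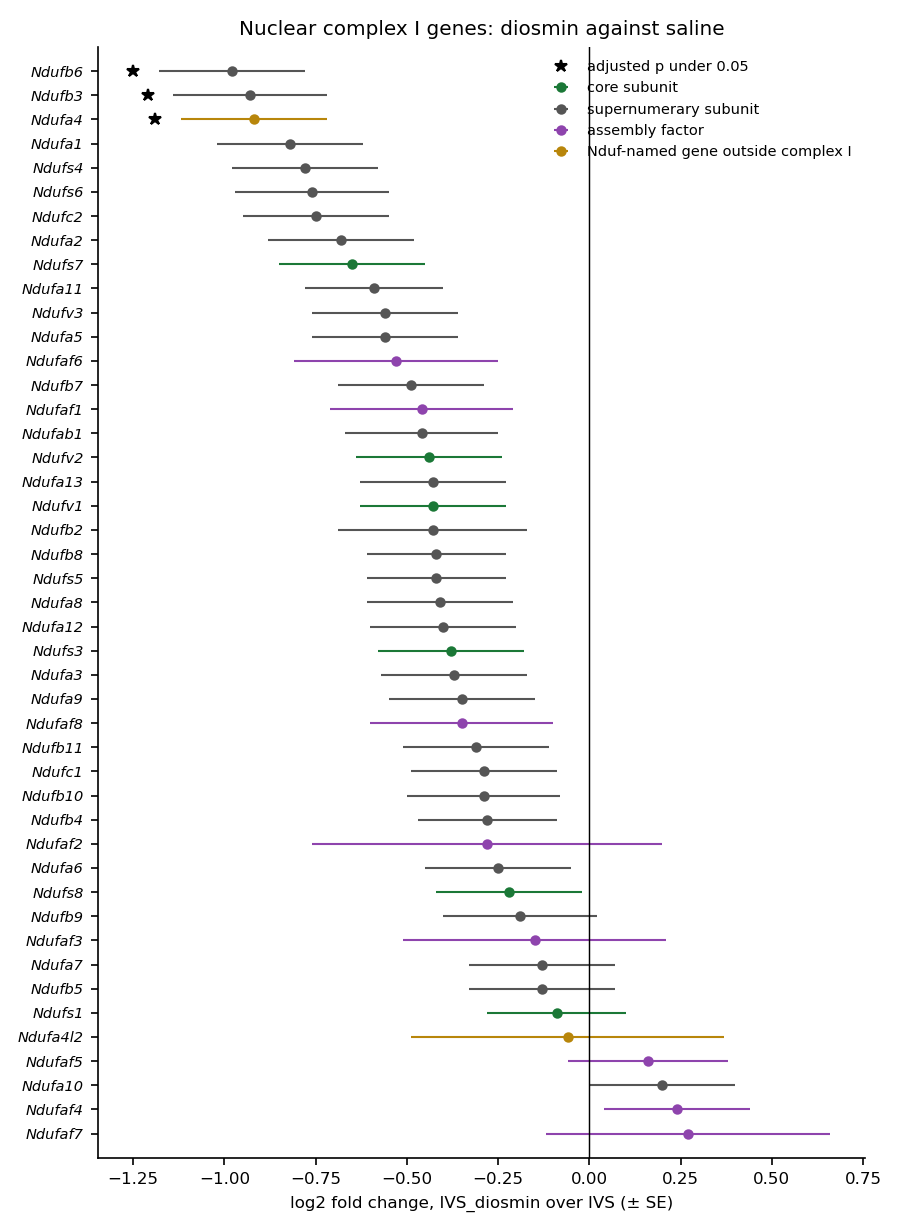
Log2 fold change (IVS_diosmin over IVS, bars SE) of 45 of the 46 genes, lowest at the top, coloured by class, with stars at an adjusted p under 0.05. Of the 45 points 41 lie left of 0, from Ndufb6 at -0.98 down to Ndufaf7 at 0.27 at the bottom, and 3 carry a star.

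Promoter stretches of the genes that fell, and 1 example each of the NRF1, YY1 and ETS motifs among the other members, are shown so that the letters can be read beside the values. Each is the 100 bases before the first annotated exon base within the RefSeq promoter window, 5′ to 3′ on the gene's strand, GRCm38.p6. Capitals mark a match to 1 of 4 motifs, on either strand: GCGCA, any base, then GCGC for NRF1, CCGGAAG for GABP and other ETS factors, AANATGGC for YY1 and AAGGTCA for the estrogen-related receptors.
Ndufb6 (chr4:40279422-40279521, minus strand): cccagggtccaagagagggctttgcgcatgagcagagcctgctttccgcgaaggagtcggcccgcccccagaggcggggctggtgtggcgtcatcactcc
Ndufb3 (chr1:58586284-58586383, plus strand): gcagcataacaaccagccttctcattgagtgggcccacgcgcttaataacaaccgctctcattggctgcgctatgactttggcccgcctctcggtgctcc
Ndufa4 (chr6:11907498-11907597, minus strand): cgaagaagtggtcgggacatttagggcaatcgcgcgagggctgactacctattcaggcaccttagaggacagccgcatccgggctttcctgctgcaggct
Ndufa11 (chr17:56717662-56717761, plus strand): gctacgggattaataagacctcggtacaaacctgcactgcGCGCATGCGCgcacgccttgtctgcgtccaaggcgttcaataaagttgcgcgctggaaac
Ndufaf3 (chr9:108567437-108567536, minus strand): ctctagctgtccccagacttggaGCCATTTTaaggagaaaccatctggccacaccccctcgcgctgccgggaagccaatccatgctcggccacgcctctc
Ndufaf1 (chr2:119662835-119662934, minus strand): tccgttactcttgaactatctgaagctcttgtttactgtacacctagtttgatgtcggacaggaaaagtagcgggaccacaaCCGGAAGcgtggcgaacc

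The printed stretches of Ndufb6, Ndufb3 and Ndufa4 hold none of the 4 motifs, and the ETS letters occur elsewhere in the window of Ndufb6. Across the whole window (250 bases before the start to 50 after), 40 of the 46 genes had a promoter in the RefSeq table. The YY1 motif occurred in 14 of the 40 (35%), beside 6.96% of the 27025 genes with a promoter in the table. The NRF1 motif occurred in 9 (22.5%, beside 5.19%), the ETS motif in 6 (15.0%, beside 9.93%) and the estrogen-related receptor motif in 3 (7.5%, beside 5.38%). Either NRF1 or YY1 letters were present in 22 of the 40, and Ndufs6 alone held both. The median log2 fold change was -0.41 in members with the NRF1 letters and -0.42 in those without, and -0.33 with the YY1 letters and -0.43 without. A match is a description of the sequence and no evidence of binding.

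Ndufb6, a supernumerary subunit of the distal membrane arm (mm10 chromosome 4, 40270591 to 40279421), had 24.5 and 28.3 CPM in IVS_diosmin replicates 1 and 2 and 51.5 and 52.9 CPM in IVS replicates 1 and 2. Both diosmin libraries were near 0.506 of the saline level (log2 fold change -0.98 ± 0.20, SE; adjusted p = 0.0262, edgeR), the lowest fold among the 46 genes. Its exons lie opposite those of Smim27, which did not pass (20.5 and 20.1 CPM in IVS_diosmin, 23.5 and 21.9 CPM in IVS, adjusted p = 0.778), and without strand the reads of such partners cannot be told apart.

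Ndufb3, a small supernumerary subunit of the distal membrane arm (chromosome 1, 58586384 to 58595964), had 38.5 and 33.8 CPM in IVS_diosmin and 77.1 and 61.1 CPM in IVS. The groups did not overlap, although the IVS libraries differed more from each other than the diosmin ones (log2 fold change -0.93 ± 0.21, SE; adjusted p = 0.0359, edgeR). Of the 50-base words in its transcripts, 6.72% also occur in another annotated gene, so reads from them may align to more than 1 place. Alignments were not examined.

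Ndufa4 (chromosome 6, 11900292 to 11907497) was first described in complex I and is now counted as a subunit of cytochrome c oxidase, complex IV. It had 189 and 198 CPM in IVS_diosmin and 357 and 375 CPM in IVS, with tight replicates in both groups (log2 fold change -0.92 ± 0.20, SE; adjusted p = 0.0293, edgeR). Per kb of principal transcript it was the most abundant of the 46 genes, at 317 CPM per kb in IVS_diosmin and 600 CPM per kb in IVS. That rank depends on the length used: its principal transcript has 610 bp and all its annotated exons 1381 bp. Its paralog Ndufa4l2, known as a hypoxia-induced gene, was near the bottom at 2.62 and 3.82 CPM in IVS_diosmin and 3.03 and 3.74 CPM in IVS, and its groups overlapped (log2 fold change -0.06 ± 0.43, SE; adjusted p = 0.967).

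The calls of these 3 genes depend on each library. Without IVS replicate 1, IVS replicate 2 or IVS_diosmin replicate 1, none of the 46 genes passed, and without IVS_diosmin replicate 2 Ndufb6 alone did, with the lone library of a group assumed to vary like the other group. In the fits without 1 library that lost a call, log2 fold changes ran from -0.76 to -1.1 for Ndufb3, -0.88 to -1.0 for Ndufb6 and -0.88 to -0.97 for Ndufa4, with adjusted p from 0.0624 to 0.232. Other tools and filters called more subunits lower: 9 with DESeq2, where 3.26% of all genes were called lower, 8 with no filter on low counts (2.34%) and 5 with a mean CPM of at least 5 (3.38%). With RLE scaling it was 2 (1.68%). Leaving out IVS replicate 1 or 2 put 1.82% or 0.423% of all genes past the threshold as lower, and leaving out IVS_diosmin replicate 1 or 2 put 0.0766% or 0.885% there. With the replicate number as a block no subunit passed (0.362% of all genes called lower), also with length and GC offsets added (1.11%). In the block fit the log2 fold changes were -0.99 for Ndufb6, -0.93 for Ndufb3 and -0.92 for Ndufa4, with adjusted p of 0.101, 0.103 and 0.0848 in edgeR. With offsets and block the adjusted p was 0.053 for Ndufb6, 0.0607 for Ndufb3 and 0.0496 for Ndufa4, which passed.

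**Figure D2:**
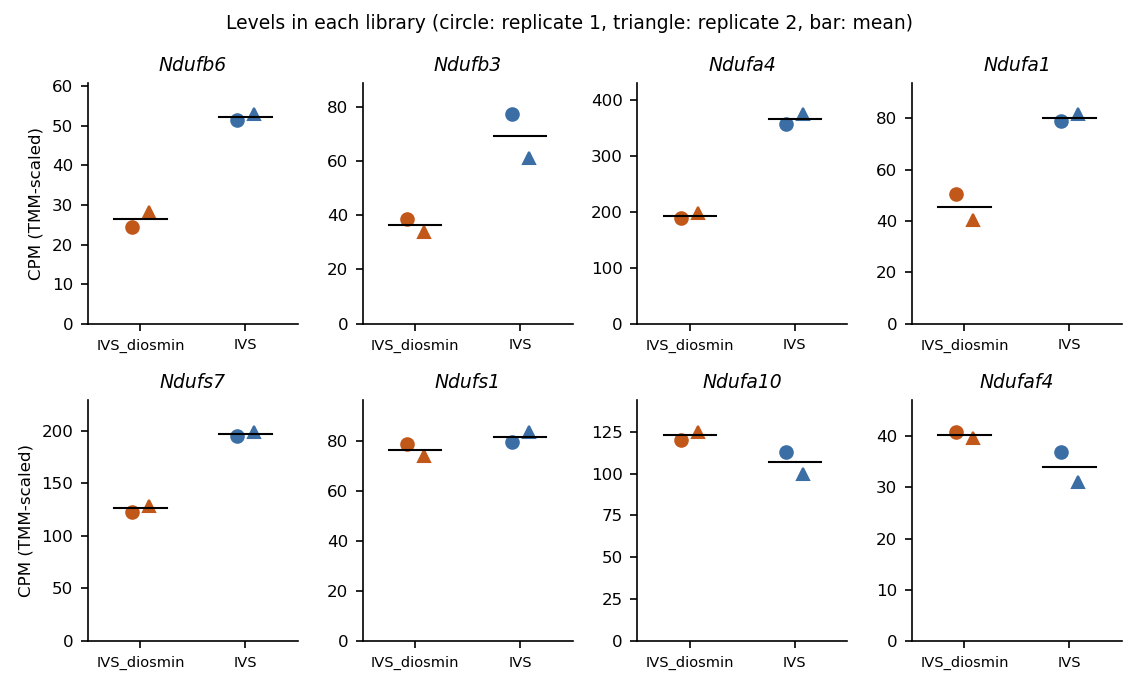
TMM-scaled CPM in each library for 8 genes, IVS_diosmin left and IVS right, with a bar at each mean. Ndufb6, Ndufb3, Ndufa4, Ndufa1 and Ndufs7 sit lower in both IVS_diosmin libraries, Ndufs1 barely differs, and Ndufa10 and Ndufaf4 sit slightly higher.

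Among the 7 nuclear core subunits, all had negative log2 fold changes (median -0.43) and none passed. In all 7 the IVS_diosmin libraries lay below the IVS libraries, beside 24.1% of all tested genes. Ndufs7, which carries the last iron-sulphur cluster before the quinone, had 123 and 128 CPM in IVS_diosmin and 195 and 199 CPM in IVS (log2 fold change -0.65 ± 0.20, SE; adjusted p = 0.106). Its groups were well apart with tight replicates, and DESeq2 called it (adjusted p = 0.0362).

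Ndufv1, which binds NADH and the flavin, had 62.1 and 71.4 CPM in IVS_diosmin and 85.2 and 94.7 CPM in IVS (log2 fold change -0.43, adjusted p = 0.300). Ndufv2, its iron-sulphur partner, had 123 and 116 CPM in IVS_diosmin and 158 and 166 CPM in IVS (log2 fold change -0.44, adjusted p = 0.278). Ndufs1, the largest subunit, which holds several iron-sulphur clusters, had 78.9 and 73.8 CPM in IVS_diosmin and 79.4 and 83.7 CPM in IVS. Its groups were barely apart, and the fit gave -0.09 ± 0.19 on the log2 scale (SE; adjusted p = 0.865, edgeR).

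Of the other core subunits, Ndufs3, of the peripheral arm, had 70.8 and 67.1 CPM in IVS_diosmin and 98.3 and 80.8 CPM in IVS (log2 fold change -0.38, adjusted p = 0.379). Ndufs8, which carries a pair of iron-sulphur clusters, had 54.0 and 53.7 CPM in IVS_diosmin and 66.4 and 59.0 CPM in IVS (log2 fold change -0.22, adjusted p = 0.645).

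The 29 supernumerary subunits had the same median as all subunits, -0.42, with 28 below 0 and 25 lower without overlap between the groups, beside 49.5% and 24.1% of all tested genes. Ndufa1, a small membrane arm subunit encoded on the X chromosome, had 50.7 and 40.5 CPM in IVS_diosmin and 79.0 and 81.5 CPM in IVS, just short of the threshold (log2 fold change -0.82 ± 0.20, SE; adjusted p = 0.0532). Ndufs4, a peripheral arm subunit whose loss causes Leigh-like disease in mice, had 65.7 and 57.6 CPM in IVS_diosmin and 116 and 95.6 CPM in IVS (log2 fold change -0.78, adjusted p = 0.0658). Ndufs6, a zinc-binding peripheral arm subunit, had 61.0 and 63.1 CPM in IVS_diosmin and 90.6 and 119 CPM in IVS (log2 fold change -0.76, adjusted p = 0.0765). In these 3 genes the groups were well apart, and the 2 IVS libraries of Ndufs6 differed most. Ndufc2 (log2 fold change -0.75, adjusted p = 0.0678) and Ndufa2 (-0.68, adjusted p = 0.1), a membrane arm and a peripheral arm subunit, came next.

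At the other end, Ndufa10, a membrane arm subunit related to nucleoside kinases, was the single subunit with a positive log2 fold change. It had 120 and 125 CPM in IVS_diosmin and 113 and 100 CPM in IVS (log2 fold change 0.20 ± 0.20, SE; adjusted p = 0.682), and its groups did not overlap. Over all tested genes, 23.4% had both IVS_diosmin libraries above both IVS libraries. Ndufa7, a peripheral arm subunit, had 45.4 and 52.1 CPM in IVS_diosmin and 55.6 and 50.8 CPM in IVS (log2 fold change -0.13, adjusted p = 0.818). Ndufb5, of the distal membrane arm, had 107 and 110 CPM in IVS_diosmin and 128 and 109 CPM in IVS (log2 fold change -0.13, adjusted p = 0.817). Ndufb9, of the same arm, had 115 and 105 CPM in IVS_diosmin and 112 and 139 CPM in IVS (log2 fold change -0.19, adjusted p = 0.713). Ndufa7, Ndufb5 and Ndufb9 were the 3 subunits whose groups overlapped.

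The remaining supernumerary subunits filled the range between these ends without passing. Ndufa11, Ndufa5, Ndufv3 and Ndufb7 had log2 fold changes of -0.59, -0.56, -0.56 and -0.49. Ndufa13, Ndufs5, Ndufb8, Ndufa8, Ndufa12, Ndufa3 and Ndufa9 lay between -0.43 and -0.35. Ndufb11, Ndufb10, Ndufc1, Ndufb4 and Ndufa6 lay between -0.31 and -0.25. Ndufab1, the acyl carrier protein that sits in both arms and also serves mitochondrial fatty acid synthesis, had 46.8 and 37.4 CPM in IVS_diosmin and 56.5 and 59.6 CPM in IVS (log2 fold change -0.46, adjusted p = 0.277). Ndufb2, of the distal membrane arm, had 9.56 and 8.40 CPM in IVS_diosmin and 12.2 and 11.9 CPM in IVS (log2 fold change -0.43, adjusted p = 0.466), with exons that overlap Gm42420 on its own strand and Braf and Gm16272 on the other.

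By position in the complex the medians of the peripheral and membrane arms were close, and those of parts of the arms ranged more widely. The 16 genes of the peripheral arm had a median log2 fold change of -0.44, all 16 below 0 and 15 lower without overlap, where 24.1% of all tested genes were lower without overlap. The 19 genes of the membrane arm had a median of -0.42, with 18 below 0 and 16 lower without overlap (the same 24.1% applies), and both called subunits belong to the distal part of this arm. Within it the 9 proximal genes had a median of -0.42 and the 10 distal genes one of -0.36. The 9 supernumerary genes of the peripheral arm had a median of -0.56, all 9 below 0 and 8 lower without overlap (beside the same 24.1%). No difference between arms or their parts was tested.

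Levels differed far more between subunits than between groups. Per kb of principal transcript, Ndufb7 was the most abundant subunit, at 265 CPM per kb in IVS_diosmin and 373 CPM per kb in IVS (171 and 159 CPM in IVS_diosmin, 226 and 238 CPM in IVS). Ndufa6 followed at 244 and 289 CPM per kb in IVS_diosmin and IVS (139 and 148 CPM in IVS_diosmin, 159 and 182 CPM in IVS), and Ndufa13 at 200 and 269 CPM per kb in IVS_diosmin and IVS (253 and 248 CPM in IVS_diosmin, 306 and 367 CPM in IVS). The lowest were Ndufs1 at 28.7 and 30.6 CPM per kb, Ndufab1 at 12.1 and 16.7 CPM per kb and Ndufb2 at 2.05 and 2.76 CPM per kb, each in IVS_diosmin and in IVS. The principal transcripts of Ndufab1 (3479 bp) and Ndufb2 (4371 bp) in the annotation are long for such small proteins, and a level per kb depends on that choice. Per kb of all annotated exons the same 3 were lowest, and the highest were Ndufa13 (200 CPM per kb in IVS_diosmin, 269 in IVS), Ndufa2 (136 in IVS_diosmin, 219 in IVS) and Ndufa5 (127 in IVS_diosmin, 187 in IVS). In CPM, Ndufa2 had 69.9 and 85.7 in IVS_diosmin and 122 and 127 in IVS, and Ndufa5 had 140 and 122 in IVS_diosmin and 200 and 186 in IVS. Among the 46 genes, 9 share over 5% of their 50-base words with another annotated gene and 17 have exons opposite another gene, which makes their absolute levels less certain.

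Of the 8 assembly factors, 5 had negative and 3 positive log2 fold changes, none passed, and the median was -0.22, with 2 lower and 1 higher without overlap, beside 24.1% and 23.4% of all tested genes. The counts are near or below those shares. The median was -0.08 without IVS replicate 2 and 0.05 without IVS_diosmin replicate 2. Ndufaf6, needed in human cells for early steps around ND1, had 9.48 and 7.08 CPM in IVS_diosmin and 12.9 and 10.9 CPM in IVS (log2 fold change -0.53, adjusted p = 0.382). Ndufaf1, a member of the membrane arm assembly complex, had 9.33 and 10.1 CPM in IVS_diosmin and 13.9 and 12.8 CPM in IVS (log2 fold change -0.46, adjusted p = 0.397). These were the 2 with both diosmin libraries lower.

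Ndufaf4, which acts with Ndufaf3 on the quinone-binding part, had 40.9 and 39.6 CPM in IVS_diosmin and 36.9 and 31.1 CPM in IVS, higher without overlap (log2 fold change 0.24, adjusted p = 0.623). Ndufaf7, a mitochondrial methyltransferase, had 9.10 and 6.32 CPM in IVS_diosmin and 8.63 and 3.98 CPM in IVS (log2 fold change 0.27, adjusted p = 0.798), and its sign turned without IVS replicate 2 (-0.17) and without IVS_diosmin replicate 1 (-0.01). Ndufaf5, which hydroxylates NDUFS7 in human cells, had a log2 fold change of 0.16, and its partner Ndufaf8 one of -0.35. Ndufaf2, a paralog of the subunit Ndufa12, and Ndufaf3 were at 1.94 to 5.93 CPM over the 4 libraries with log2 fold changes of -0.28 and -0.15. The SEs of the 8 log2 fold changes ran from 0.20 to 0.48.

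Of 13 listed assembly factors without an Nduf symbol, 12 were found by symbol, and all 12 were tested. They had 10 positive and 2 negative log2 fold changes, a median of 0.23 and none past the threshold. The smallest adjusted p in that list was that of Dmac2 (0.304), at 67.9 and 51.9 CPM in IVS_diosmin and 47.6 and 39.2 CPM in IVS. Summed over genes, the 36 nuclear subunits came to 3268 ± 43.1 CPM in IVS_diosmin and 4419 ± 102 CPM in IVS (SD, n = 2 each), a ratio of 0.740. The 8 Nduf assembly factors came to 111 ± 2.19 CPM in IVS_diosmin and 114 ± 5.54 CPM in IVS, a ratio of 0.978. Much of that sum came from Ndufaf4 (mean 40.3 CPM in IVS_diosmin, 34.0 in IVS) and Ndufaf5 (22.7 and 20.3), both with positive log2 fold changes. The median level of the 8 was 9.41 and 8.57 CPM in IVS_diosmin and 13.4 and 11.9 CPM in IVS. That of the subunits was 81.4 and 80.5 CPM in IVS_diosmin and 112 and 106 CPM in IVS. The sums and medians were not tested, and the smallest p of a 2-sided exact permutation test of 2 libraries against 2 is 0.333.

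**Figure D3:**
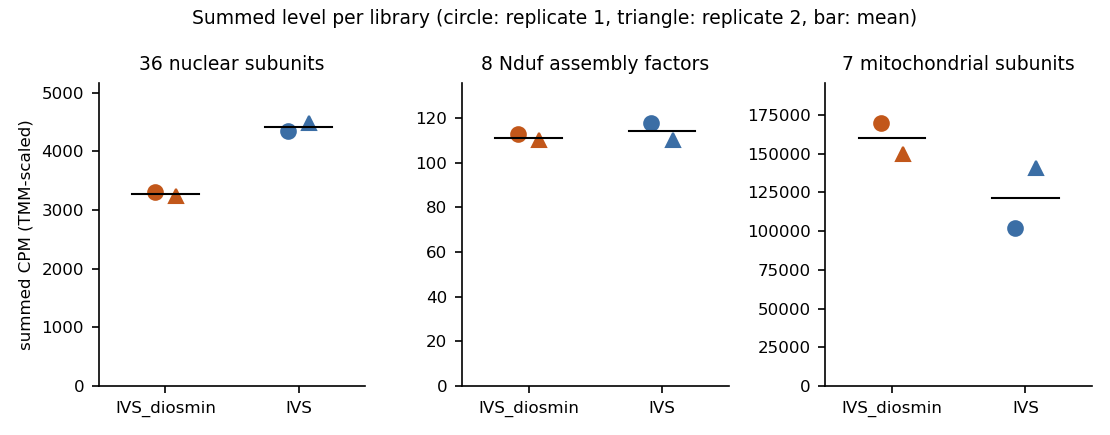
Summed TMM-scaled CPM per library of the 36 nuclear subunits, the 8 Nduf assembly factors and the 7 mitochondrially encoded subunits, IVS_diosmin left and IVS right, with a bar at each mean. The nuclear subunits are at 3299 and 3238 CPM in IVS_diosmin, below 4347 and 4491 CPM in IVS, the assembly factors overlap, and the mitochondrially encoded subunits are higher in IVS_diosmin.

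The 7 mitochondrially encoded subunits of the same enzyme summed to 170017 and 149934 CPM in IVS_diosmin and 102118 and 140550 CPM in IVS, and 6 of 7 had positive log2 fold changes, with a median of 0.33. None of the 7 passed, and 3 were higher in both IVS_diosmin libraries than in both IVS libraries, beside 23.4% of all tested genes. The smallest adjusted p was that of mt-Nd2 (0.259), a proton-pumping membrane subunit, at 32000 and 26700 CPM in IVS_diosmin and 17900 and 23200 CPM in IVS (log2 fold change 0.52 ± 0.22, SE). The exception was mt-Nd4l, with a log2 fold change of -0.25. The summed level of mitochondrially encoded subunits was 51.5 and 46.3 times that of the nuclear subunits in IVS_diosmin and 23.5 and 31.3 times in IVS. This ratio does not depend on library scaling. That its groups did not overlap follows from the sums themselves, which lay apart in opposite directions, and adds nothing to them. All mitochondrially encoded genes took 45.0% and 40.7% of gene counts in IVS_diosmin and 31.5% and 38.5% in IVS. As a share of the counts on nuclear genes alone, the nuclear subunits were at 0.560% and 0.541% in IVS_diosmin and 0.724% and 0.688% in IVS.

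The other respiratory complexes show where complex I stood. Complex IV had the lowest median, -0.54, over 13 nuclear genes that do not include Ndufa4, given above. All 13 were below 0, beside 49.5% of all tested genes, and 2 fell, beside 1.78% called lower. The same shares apply to complexes III and V. The 2 were Cox6a1, a non-muscle isoform, at 12.0 and 9.09 CPM in IVS_diosmin and 21.4 and 24.3 CPM in IVS (log2 fold change -1.12, adjusted p = 0.0295), and Cox5a at 104 and 120 CPM in IVS_diosmin and 192 and 206 CPM in IVS (log2 fold change -0.83, adjusted p = 0.0475). Complex III had a median of -0.34, with 8 of 9 below 0 and none past the threshold, and Uqcrq had its smallest adjusted p (0.131). Complex V had a median of -0.28, with 14 of 16 below 0, and 1 fell, Atp5g3, 1 of the Atp5g genes for the membrane ring subunit c, at 114 and 107 CPM in IVS_diosmin and 232 and 195 CPM in IVS (log2 fold change -0.95, adjusted p = 0.0282). Atp5g1 (log2 fold change -0.15, adjusted p = 0.777) and Atp5g2 (0.30, adjusted p = 0.494) did not pass. Lower without overlap, as most complex I subunits were, stood 11 of 13 genes in complex IV, 7 of 9 in complex III and 12 of 16 in complex V. In complex II it was 1 of 4, and over all tested genes 24.1%.

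Complex II, which also belongs to the citric acid cycle, had a median of 0.08 over 4 genes, 1 below 0 and none past the threshold. Its smallest adjusted p was that of Sdha (0.237), with a log2 fold change of 0.49. The gene below 0 was Sdhb (log2 fold change -0.45, adjusted p = 0.282). The 4 assembly factors of complex II all had positive values, with a median of 0.38 and none past the threshold. The smallest adjusted p among them was that of Sdhaf1 (0.433). Of 14 regulators of respiratory genes, none passed, and the median was 0.13. Esrrg, an estrogen-related receptor of oxidative muscle, had the smallest adjusted p (0.0991), at 6.09 and 2.64 CPM in IVS_diosmin and 1.14 and 1.38 CPM in IVS. Ppargc1a, the coactivator of mitochondrial biogenesis, had 8.56 and 14.0 CPM in IVS_diosmin and 8.86 and 8.61 CPM in IVS.

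**Figure D4:**
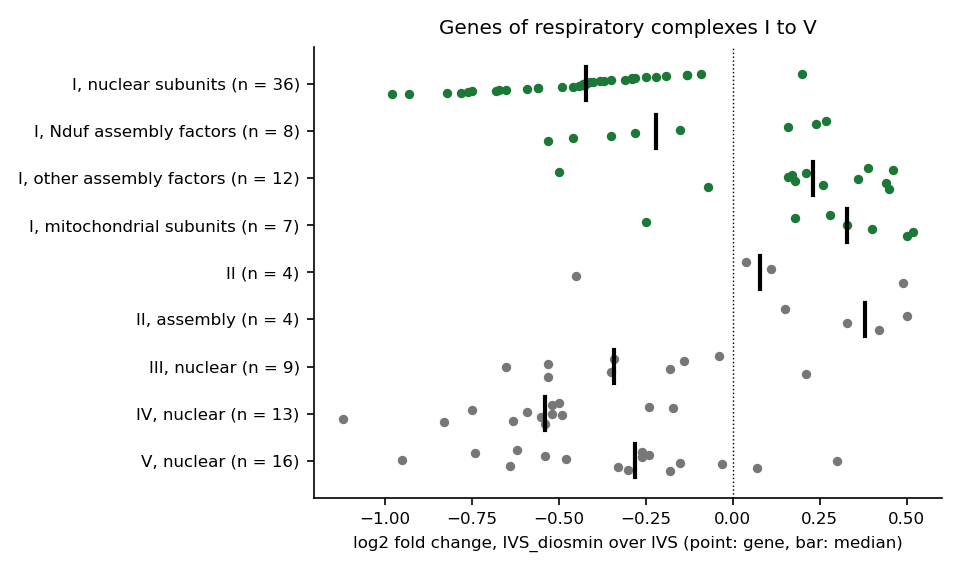
Log2 fold change (IVS_diosmin over IVS) of single genes in each group of respiratory genes, with a bar at the median and complex I in green. Medians are -0.42 for the nuclear subunits of complex I, -0.34, -0.54 and -0.28 for complexes III, IV and V, and 0.33 for the mitochondrially encoded subunits of complex I.

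Subunit transcripts are short and abundant, and both properties were set beside the fold changes. All tested protein-coding genes had a median log2 fold change of -0.12 in transcripts up to 600 bp and of -0.16 between 600 and 1000 bp, where the members had medians of -0.59 (7 genes) and -0.42 (17 genes). Between 1500 and 2500 bp all genes had a median of 0.02 and the 7 members there one of -0.44. Between 2500 and 4000 bp all genes had a median of 0.01 and the 3 members one of -0.09, and between 1000 and 1500 bp all genes had -0.04 and the 11 members -0.35. Among the 253 other protein-coding genes with a transcript up to 1500 bp and a mean between 50 and 400 CPM, the median was 0.01 and 34.8% were lower in both IVS_diosmin libraries, and among the 26 members in that class the median was -0.41 and 23 were. Over the 36 subunits, which share the same 4 libraries, Spearman's rho of the log2 fold change was 0.182 with transcript length, 0.148 with mean CPM and 0.159 with GC content. Each library was also corrected for GC content and the length of all annotated exons, which is not the principal transcript length used above. With these offsets the subunit median was -0.40, and 1.71% of all genes were called lower. Ndufa1 (adjusted p = 0.0440, edgeR) was then called beside Ndufb6, Ndufb3 and Ndufa4.

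**Figure D5:**
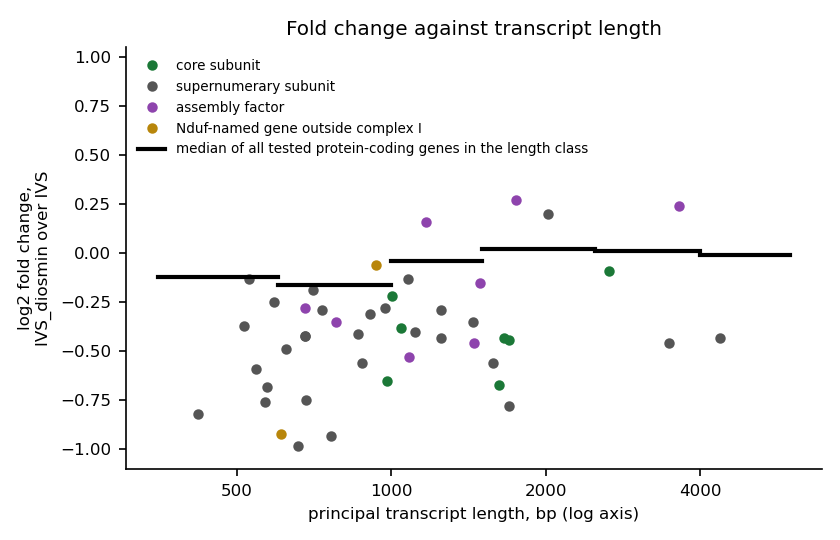
Log2 fold change (IVS_diosmin over IVS) of the 46 genes against the length of the principal transcript (log axis), coloured by class, with bars at the median of all tested protein-coding genes in each length class. The members lie below the bars over most of the range, with Ndufa10, Ndufaf4, Ndufaf5, Ndufaf7 and Ndufa4l2 above them.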

How the data were processed

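The deposited files hold raw read counts per gene, 1 file per library. Per the submitters' processing notes, HISAT2 2.1.0 and HTSeq were used with mm10. The release of the annotation, the strand setting and any filter are not given in the sources used here. Per the labels' protocols, poly(A) RNA was selected with poly-T beads. Of the reads, 24.9% to 27.7% per library were counted on genes. The HTSeq summary lines stayed out of sizes and tests: 37.7% to 45.6% of reads aligned to more than 1 place, 25.8% to 29.7% lay in no feature and 1.42% to 2.89% did not align.

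Identifiers were matched without version to GENCODE M21 (55141 of 55401). Counts were tested with edgeR 4.0.16 in R 4.3.3: filterByExpr (13533 genes kept), TMM, robust quasi-likelihood fit, 2-sided, Benjamini-Hochberg over all tested genes, threshold 0.05; every adjusted p is from this test unless DESeq2 (1.42.0) is named. The script was tested on simulated data. Replicates differed beyond sampling noise (chi-square per degree of freedom 30.8 in IVS, 21.1 in IVS_diosmin), and the biological coefficient of variation was 0.235. Levels per kb use the length of GENCODE's principal transcript. Promoters are RefSeq's on GRCm38.p6. Alternatives were RLE scaling, DESeq2, no filter, a mean CPM of at least 5, leaving out each library and a replicate block. Length and GC offsets, with the length of all annotated exons, were also used with and without that block. Each SE is the absolute log2 fold change divided by the square root of the test's F value. The fit shares dispersion across genes, so an SE is not the spread of that gene's own libraries. SDs cover the spread between 2 libraries only, and all errors rest on 2 libraries per group.

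The members and lists were chosen with earlier results of these data known. Values in every library are given for members past the threshold, the 5 lowest and 5 highest subunits and the 2 lowest and 2 highest assembly factors by fold change, the 3 highest and 3 lowest subunits per kb of exon and of principal transcript, the core subunits, Ndufa4, Ndufa4l2 and Ndufab1. The values of 1 member are not reported here; it is included in counts, medians and sums.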

Additional observations from a re-analysis of the deposited data

How the results depend on the processing

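The negative sign of 35 of 36 subunits held in all 11 alternatives, and their median stayed between -0.39 and -0.47 (-0.47 to -0.42 when 1 library was left out, the lowest without IVS_diosmin replicate 1). Scaling by total gene counts put the median log2 ratio of all genes at -0.11, against 0.01 with TMM, and that of the subunits at -0.53, with 35 of 36 still below 0. The number of subunits called lower was 2 with TMM or RLE scaling, 9 with DESeq2, 8 with no filter, 5 with a mean CPM of at least 5, 0 to 1 when 1 library was left out, 3 with length and GC offsets, and 0 with the replicate block, with or without those offsets. No subunit was called higher and no assembly factor passed in any of them. The median of the assembly factors ran from -0.33 to 0.05 when 1 library was left out: it was -0.08 without IVS replicate 2 and turned to 0.05 without IVS_diosmin replicate 2. All genes past the threshold numbered 400, 613 with DESeq2, 919 with no filter, 38 to 366 without 1 library, 93 with the replicate block and 263 with offsets and the replicate block; the cause was not tested. The labels name no pairing of same-numbered replicates. Their deviations from the group means correlated at 0.0115 over all genes and 0.178 over the members, so whether the numbers pair the samples is not known. Ndufaf7 ran from -0.17 to 0.95 when 1 library was left out, turning to -0.17 without IVS replicate 2 and -0.01 without IVS_diosmin replicate 1, and Ndufa4l2 ran from -0.38 to 0.18, turning to 0.08 and 0.18 in the same fits. The number of members lower in both IVS_diosmin libraries was 35 with TMM, 35 with RLE and 38 with total counts, alternatives chosen after seeing the data.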
